A study of Mus musculus with 19 samples.

Results

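The lysosome is the acidic organelle in which proteins, glycans and lipids are broken down, and 46 genes of its machinery were followed here in mouse hippocampal astrocytes. The genes were chosen by function, with no measured value in the rule, though with earlier results of these data known, and all 46 of 46 were found by symbol among the 60567 genes measured. They code for 12 proteases, 1 protease inhibitor, 10 enzymes of glycan breakdown (glycosidases and a sulfatase), 5 lipid hydrolases and activators, 7 membrane proteins, progranulin and the transcription factor TFEB, and 9 proteins of the proton pump (V-ATPase). RNAseq had been performed on cells isolated by FACS from hippocampi of 9 month-old male C57bl6 mice. GFP+ astrocytes came from wild-type mice injected with a viral vector for GFP (WT-GFP, n = 7), from APP/PS1dE9 mice, a model that deposits amyloid, with the same vector (APP-GFP, n = 4), and from APP/PS1dE9 mice that received a vector for SOCS3 together with the GFP vector (APP-SOCS3, n = 5). SOCS3 is an inhibitor of the JAK2-STAT3 pathway. All GFP+ cells thus carry a viral vector, and expression from it was driven by gfaABC1D, a short promoter derived from that of GFAP. GFP- cells of WT-GFP mice (n = 3) were collected together and may hold astrocytes that the vector had not reached beside the other cells.

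Lysosomal enzymes are made in the endoplasmic reticulum, most are tagged with mannose-6-phosphate, and many cathepsins become active only after cleavage at acidic pH. The V-ATPase provides that pH: its V1 sector hydrolyses ATP in the cytosol and its V0 sector carries protons across the membrane. TFEB switches on many genes of this machinery together by binding E-box sequences in their promoters. In the brain, microglia and macrophages are rich in lysosomes and express *Ctss* and *Cd68* at high levels, while astrocytes secrete large amounts of cystatin C, the product of *Cst3*.

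Reads counted on genes were 19331876 to 32621917 per sample. Genes detected numbered 15575 to 26757 in samples of GFP+ astrocytes and 30807 to 31897 in those of GFP- cells. The fewest were in WT-GFP replicates 3 (15575) and 2 (18107) and APP-GFP replicate 2 (16471). The other APP-GFP samples had 24859 to 25273, and the part of this in the extreme values of APP-GFP replicate 2 was not tested. The sorted astrocytes were checked against marker lists: all 15 of 15 astrocyte markers were higher in WT-GFP astrocytes than in GFP- cells, and all 20 of 20 microglial markers were lower. Also lower were 15 of 15 endothelial, 9 of 9 mural and 6 of 6 oligodendrocyte precursor markers. So were 7 of 8 of perivascular macrophages and 9 of 12 of neurons. Of 7 oligodendrocyte markers tested, 2 were higher and 2 lower. Their list summed to 168% to 240% of the GFP- mean in WT-GFP and 214% to 658% in APP-GFP astrocytes. Endothelial and mural sums were 2.35% to 21.6% and 2.68% to 27.4% in WT-GFP astrocytes. The 20 microglial markers were not absent from GFP+ samples. Their summed level was 5.47% to 22.0% of the GFP- mean in WT-GFP and 3.78% to 7.48% in APP-SOCS3 astrocytes, while APP-GFP replicates 1 to 4 had 8.16%, 34.1%, 44.3% and 11.7%. APP-GFP replicates 2 and 3 thus stood above all other astrocyte samples for these markers, and the main results that rest on them are given with and without them. They also led the APP-GFP samples in endothelial markers (18.1% and 10.4%, against 3.96% and 3.41% in replicates 1 and 4). The same held for mural markers (15.8% and 12.9%, against 2.99% and 4.21%). Leaving them out thus removes the APP-GFP samples highest in endothelial and mural markers as well. In these bulk samples, fewer cells of a type and less RNA per cell cannot be told apart.

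In WT-GFP astrocytes, *Cst3* had the highest level of the 46 genes when levels were divided by exon length. Normalized levels per kilobase of exon were 488444 ± 145468 for *Cst3*, 14116 ± 2489 for *Ctsd*, 9520.0 ± 1382 for *Ctsb*, 6903 ± 1033 for *Psap* and 5696 ± 1716 for *Cd63* (SD, n = 7). *Ctsd* and *Ctsb* encode the most studied aspartic and cysteine cathepsins, *Psap* the precursor of the saposins that help enzymes reach sphingolipids, and *Cd63* a tetraspanin of late endosomes. The ranges over the 7 samples did not overlap between *Cst3* and any other gene, whereas those of *Ctsd* (10633 to 17936) and *Ctsb* (7690.5 to 11925) overlapped. At the other end stood *Sgsh*, which encodes a sulfatase of heparan sulfate, with 40.2 ± 22.6 per kilobase, *Tfeb* with 58.2 ± 13.1, the lipase gene *Lipa* with 58.5 ± 42.6 and the mannosidase gene *Manba* with 58.6 ± 22.6 (SD, n = 7). The places of *Psap* and *Tfeb* depend on the length used, while the other genes named so far keep theirs. Divided by the longest transcript instead, *Atp6v0b*, a subunit of the proton pump, came to 8637 per kilobase (4211 by exons), above *Cd63* with 7247 and *Psap* with 7129, and *Tfeb* came to 141, above *Manba* with 111 and *Lipa* with 102. Reads had been counted on constitutive regions alone, whose lengths were not used here. Summed without regard to length, the 46 genes made up 1.79% to 2.02% of all levels in GFP- cells. In astrocytes the sum was 2.67% to 4.56% (WT-GFP), 3.58% to 5.48% (APP-GFP) and 3.17% to 4.01% (APP-SOCS3). This excess was that of *Cst3*, which alone made up 0.402% to 0.557% in GFP- cells but 1.35% to 3.31% in WT-GFP astrocytes. The other 45 genes had shares of 1.39% to 1.46% in GFP- cells and, in astrocytes, of 1.22% to 1.45% (WT-GFP), 1.25% to 1.68% (APP-GFP) and 1.24% to 1.43% (APP-SOCS3).

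**Figure D1:**
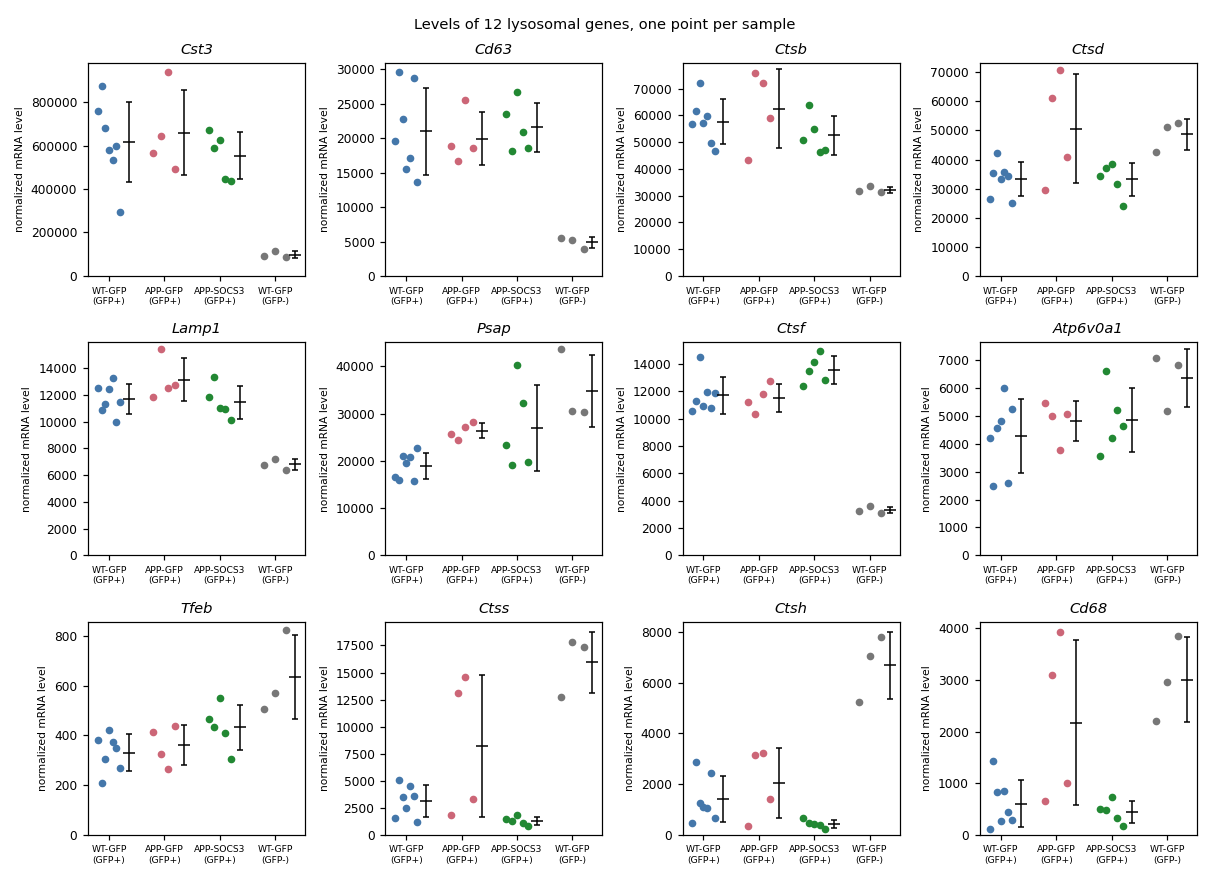
Normalized mRNA levels of 12 lysosomal genes on linear axes from 0, with 1 point per sample and the mean and SD at the right of each group (3 samples of GFP- cells, 7 WT-GFP, 4 APP-GFP and 5 APP-SOCS3). *Cst3*, *Cd63*, *Ctsb*, *Lamp1* and *Ctsf* lie higher in every astrocyte sample than in GFP- cells, and the *Ctss*, *Ctsh* and *Cd68* points of APP-GFP astrocytes are spread widely.

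The promoters of these genes differ in the E-box that TFEB binds. RefSeq windows on GRCm38.p6, from 250 bases before to 50 bases after the start of transcription, were at hand for 41 of the 46 genes and for 27025 genes in all. The letters TCACGTG, read on either strand, were present in the windows of 14 of these 41 genes (34.1%) and of 4.29% of all genes. Of 43 genes with windows from the list of other lysosomal genes counted below, 8 (18.6%) held TCACGTG. The shorter CACGTG, which lies inside it, was present in 16 of the 41 (39.0%) and in 8.09% of all genes. Sequences are shown for *Lamp1*, *Ctsd* and *Atp6v0b*, which hold several copies, and for *Ctss* and *Cd68*, the members with the largest differences among astrocyte groups, which hold none. Capitals mark TCACGTG or, on the other strand, CACGTGA, with overlapping matches run together, and each sequence is read along the strand of its gene.
Lamp1, chr8:13158911-13159210, plus strand: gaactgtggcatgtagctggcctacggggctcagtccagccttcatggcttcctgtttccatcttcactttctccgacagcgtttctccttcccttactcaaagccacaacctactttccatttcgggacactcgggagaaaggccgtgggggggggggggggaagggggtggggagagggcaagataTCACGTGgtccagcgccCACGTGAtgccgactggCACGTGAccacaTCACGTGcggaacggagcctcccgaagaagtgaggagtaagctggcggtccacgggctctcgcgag
Ctsd, chr7:142387778-142388077, minus strand: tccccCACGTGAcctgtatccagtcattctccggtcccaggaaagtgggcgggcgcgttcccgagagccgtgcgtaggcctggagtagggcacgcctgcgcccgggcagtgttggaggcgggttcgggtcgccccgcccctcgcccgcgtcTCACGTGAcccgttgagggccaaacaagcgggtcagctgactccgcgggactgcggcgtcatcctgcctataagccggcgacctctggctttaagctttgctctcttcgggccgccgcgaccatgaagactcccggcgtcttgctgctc
Atp6v0b, chr4:117887280-117887579, minus strand: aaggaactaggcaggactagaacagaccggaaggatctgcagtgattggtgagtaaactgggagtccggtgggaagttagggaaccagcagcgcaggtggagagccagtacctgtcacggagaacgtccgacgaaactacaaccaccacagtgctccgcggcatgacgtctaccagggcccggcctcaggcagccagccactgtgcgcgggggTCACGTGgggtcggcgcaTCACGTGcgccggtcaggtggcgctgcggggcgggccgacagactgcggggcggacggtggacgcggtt
Ctss, chr3:95526536-95526835, plus strand: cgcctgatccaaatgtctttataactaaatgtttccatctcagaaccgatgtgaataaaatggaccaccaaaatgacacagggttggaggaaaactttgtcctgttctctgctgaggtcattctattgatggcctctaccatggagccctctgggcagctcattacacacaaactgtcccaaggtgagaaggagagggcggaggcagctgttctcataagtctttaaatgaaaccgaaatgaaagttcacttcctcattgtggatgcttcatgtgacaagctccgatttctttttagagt
Cd68, chr11:69666121-69666420, minus strand: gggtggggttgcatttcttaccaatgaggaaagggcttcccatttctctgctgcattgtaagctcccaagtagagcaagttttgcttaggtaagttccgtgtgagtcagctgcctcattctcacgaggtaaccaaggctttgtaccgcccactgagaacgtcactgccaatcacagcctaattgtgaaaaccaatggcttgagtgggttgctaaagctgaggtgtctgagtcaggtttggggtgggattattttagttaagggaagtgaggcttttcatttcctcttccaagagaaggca
The *Lamp1* window has 4 such sites within its last 62 bases before the start, and those of *Ctsd* and *Atp6v0b* have 2 each. A match of letters is a description and not proof of binding, and the absence of these letters says nothing of TFEB at other places.

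The first comparison asks which lysosomal genes astrocytes express more or less than the sorted GFP- cells. Myelin had been depleted before sorting. Mean summed marker levels in GFP- cells were 201791 for endothelial cells, 168557 for mural cells, 154827 for microglia and 42288 for oligodendrocyte precursor cells. They were 4714 for neurons and 2952 for oligodendrocytes. The lists differ in genes and length, so these sums do not give shares of cells. Of the 46 genes, 13 were higher and 12 lower in WT-GFP astrocytes than in GFP- cells, where a gene was called if it differed by 1.5-fold or more with an unadjusted limma p no higher than 0.05. Among all 26709 genes tested, 42.8% were called, 9.25% higher and 33.5% lower. The median log2 fold change was -0.11 for the 46 genes and -1.31 for all genes tested. With the Benjamini-Hochberg adjusted p of limma under 0.05 in place of these thresholds, 24 members passed, where 31.9% of all genes did. For 24 members the 2 groups did not overlap, where 34.8% of all genes did not. The split depends on the scaling: it was 10 higher and 14 lower with equal totals, 5 and 18 with equal upper quartiles, 16 and 9 with edgeR, where the median of all genes was -1.5, -1.74 and -0.37. No called member changed sign under any of these. With equal upper quartiles, *Asah1*, *Atp6v0b*, *Atp6v0c*, *Cln3*, *Ctsb*, *Lamp1*, *Scarb2* and *Tpp1* lost their calls.

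Proteases went both ways, with 4 of 12 higher and 4 lower in astrocytes. *Ctsf*, a cysteine cathepsin with a cystatin-like propeptide, ranged from 10535 through a median of 11306 to 14549.8 in WT-GFP astrocytes and had 3265, 3592 and 3132 in GFP- cells. Every astrocyte sample was above all GFP- samples, and the log2 fold change was 1.81 ± 0.13 (SE, adjusted p = 7.05e-06, limma). *Ctso*, a little studied cysteine cathepsin, had 2807, 5814 and 7366 as lowest, median and highest level in astrocytes and 2018, 1633 and 1475 in GFP- cells. Again no samples overlapped, with a log2 fold change of 1.61 ± 0.30 (SE, adjusted p = 0.00216, limma). *Ctsb* was higher by 0.83 ± 0.13 on the log2 scale (SE), with 46535 to 72158 in astrocytes against 31207 to 33529 in GFP- cells, and *Tpp1*, a tripeptidyl peptidase, by 0.70 ± 0.26 (SE). The *Tpp1* groups overlapped and its adjusted p was 0.0603 (limma), and it was called in 7 of the 10 fits that each left out 1 sample, failing when any GFP- sample was left out.

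The 4 proteases that were lower in astrocytes were *Ctsc*, *Ctss*, *Ctsh* and *Lgmn*. *Ctsc*, which activates the granule proteases of immune cells, ranged from 225 through 404 to 539.8 in astrocytes, against 2847, 2337 and 2401 in GFP- cells. *Ctss*, the cathepsin that trims the invariant chain of MHC class II, ranged from 1154 through 3485 to 5099.8, against 12702, 17795 and 17375. *Ctsh*, an aminopeptidase, ranged from 458 through 1078 to 2865, against 5218, 7035 and 7796. For all these genes no astrocyte sample reached the lowest GFP- sample. Their log2 fold changes were -2.64 ± 0.29, -2.52 ± 0.43 and -2.49 ± 0.51 (SE), with adjusted p of 5.62e-05, 0.00127 and 0.0037 (limma). *Lgmn*, the asparaginyl endopeptidase, was lower by a smaller step, with a log2 fold change of -1.39 ± 0.18 (SE). *Ctsd* ranged from 24999 through 34251 to 42167 in astrocytes, with 42444, 51115 and 52387 in GFP- cells. Its samples did not overlap, but its log2 fold change of -0.57 ± 0.16 (SE) was under the fold threshold. The same holds for *Ctsa*, the carboxypeptidase that protects β-galactosidase and sialidase, at 0.37 ± 0.13 (SE), while *Ctsl* and *Ctsz*, a cysteine endopeptidase and a carboxypeptidase, were at -0.21 ± 0.14 and 0.00 ± 0.20 (SE) and overlapped with GFP- cells.

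*Cst3*, whose product inhibits cysteine cathepsins, had the largest positive difference of the 46. Its levels were 294946 at the lowest, 600080.0 at the median and 874933 at the highest in astrocytes, and 93039, 114928 and 87938 in GFP- cells. The lowest astrocyte sample was still above every GFP- sample, and the log2 fold change was 2.59 ± 0.27 (SE, adjusted p = 3.84e-05, limma).

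Among the 10 glycosidases and sulfatase, none was called higher and 3 were lower. *Man2b1* and *Manba*, which encode the lysosomal α- and β-mannosidases, and *Naglu*, an enzyme of heparan sulfate breakdown, had log2 fold changes of -1.60 ± 0.39, -1.38 ± 0.39 and -0.88 ± 0.28 (SE). *Man2b1* ranged from 406 through 1329 to 1708 in astrocytes, against 3135, 3188 and 4559.9 in GFP- cells, with no overlap. The genes for acid α-glucosidase (*Gaa*), the β-hexosaminidase α-subunit (*Hexa*), α-galactosidase A (*Gla*), β-galactosidase (*Glb1*), β-glucuronidase (*Gusb*), sialidase (*Neu1*) and *Sgsh* lay between -0.70 and 0.54 and were not called. *Sgsh* was listed at 0 in WT-GFP replicate 3, and its log2 fold change has an SE of 1.55.

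Of the 5 genes of lipid breakdown, *Gm2a* and *Asah1* were higher and *Psap* and *Lipa* lower. *Gm2a*, the activator that presents GM2 ganglioside to hexosaminidase, had a log2 fold change of 1.06 ± 0.22 (SE). *Asah1*, acid ceramidase, had 0.63 ± 0.27 (SE), but overlapped with GFP- cells, and was called in only 2 of the 10 fits that each left out 1 sample. *Psap* ranged from 15694 through 19564 to 22829 in astrocytes and had 43682, 30464 and 30272 in GFP- cells, without overlap, and a log2 fold change of -0.87 ± 0.17 (SE). *Lipa*, the acid lipase for cholesteryl esters, had 1471, 1384 and 1389 in GFP- cells and 395, 9.08, 916, 435, 447, 124 and 452 in WT-GFP replicates 1 to 7. The groups did not overlap, but replicate 2 was far below and replicate 3 above the other astrocyte samples, and the log2 fold change was -2.58 ± 1.14 (SE, adjusted p = 0.105, limma). Its call was kept in 6 of the 10 fits without 1 sample, with log2 fold changes of -2.43 without WT-GFP replicate 6 and -2.56, -2.60 and -2.60 without GFP- replicates 1, 2 and 3 in the fits that lost it. *Ppt1*, a thioesterase that removes palmitate from proteins, was at 0.16 ± 0.30 (SE) and was not called.

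Membrane proteins of the lysosome were mostly higher in astrocytes, with 4 of 7 called higher and 1 lower. With equal upper quartiles, only *Cd63* kept its call among the higher genes, and *Cd68* stayed lower. *Cd63* ranged from 13583 through 19534 to 29611 in astrocytes and had 5484, 5236 and 3963 in GFP- cells, so that no samples overlapped, and its log2 fold change was 2.06 ± 0.25 (SE, adjusted p = 0.000113, limma). *Lamp1*, which encodes a main glycoprotein of the lysosomal coat, ranged from 9977 through 11497 to 13292, against 6793, 7216 and 6396, also without overlap, with 0.78 ± 0.12 (SE). *Cln3*, the gene of juvenile Batten disease, ranged from 633 through 1476 to 1751, and its lowest sample fell just below the highest GFP- sample at 637. Its log2 fold change was 1.13 ± 0.31 (SE), and that of *Scarb2*, the receptor that carries glucocerebrosidase to lysosomes, was 0.73 ± 0.15 (SE). *Lamp2*, involved in autophagy, and *Mcoln1*, a cation channel, were at -0.05 ± 0.28 and 0.18 ± 0.21 (SE) and were not called. The exception was *Cd68*, a macrophage protein of lysosomes, with 112, 443 and 1426 as lowest, median and highest level in astrocytes and 2202, 2968 and 3855 in GFP- cells. Its log2 fold change of -2.70 ± 0.67 (SE, adjusted p = 0.0116, limma) was the most negative of the 46.

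*Grn*, which encodes the secreted and lysosomal protein progranulin, and *Tfeb* were both lower in astrocytes. *Tfeb* ranged from 208 through 348 to 423 in astrocytes, against 506, 572 and 826 in GFP- cells, without overlap. The log2 fold changes were -0.95 ± 0.31 for *Tfeb* and -0.99 ± 0.20 for *Grn* (SE, adjusted p = 0.0375 and 0.00365, limma). Without GFP- replicate 3, the *Tfeb* difference was -0.74 and no longer passed.

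Of the 9 V-ATPase genes, only 2 of the V0 sector were called, and neither kept its call with equal upper quartiles. *Atp6v0b* and *Atp6v0c*, which encode subunits of the proton-carrying ring, were higher by 0.95 ± 0.21 and 0.77 ± 0.21 on the log2 scale (SE), and neither overlapped with GFP- cells. *Atp6v0a1*, the subunit that forms the proton path beside the ring, ranged from 2503 through 4554 to 6003 in astrocytes, and GFP- cells had 7088, 5185 and 6815. These ranges overlapped, and the log2 fold change of -0.63 ± 0.28 (SE) was not called (adjusted p = 0.116, limma, exact permutation p = 0.05, smallest possible 0.0167). *Atp6v0d1* was at 0.35 ± 0.16 (SE), and the V1 subunits *Atp6v1a*, *Atp6v1b2* and *Atp6v1h* were at -1.21 ± 0.61, -0.39 ± 0.45 and 0.12 ± 0.23 (SE). The accessory subunits *Atp6ap1* and *Atp6ap2* were at -0.03 ± 0.16 and 0.18 ± 0.15 (SE). Whether the V0 ring genes differed from the V1 genes in this contrast was not tested.

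**Figure D2:**
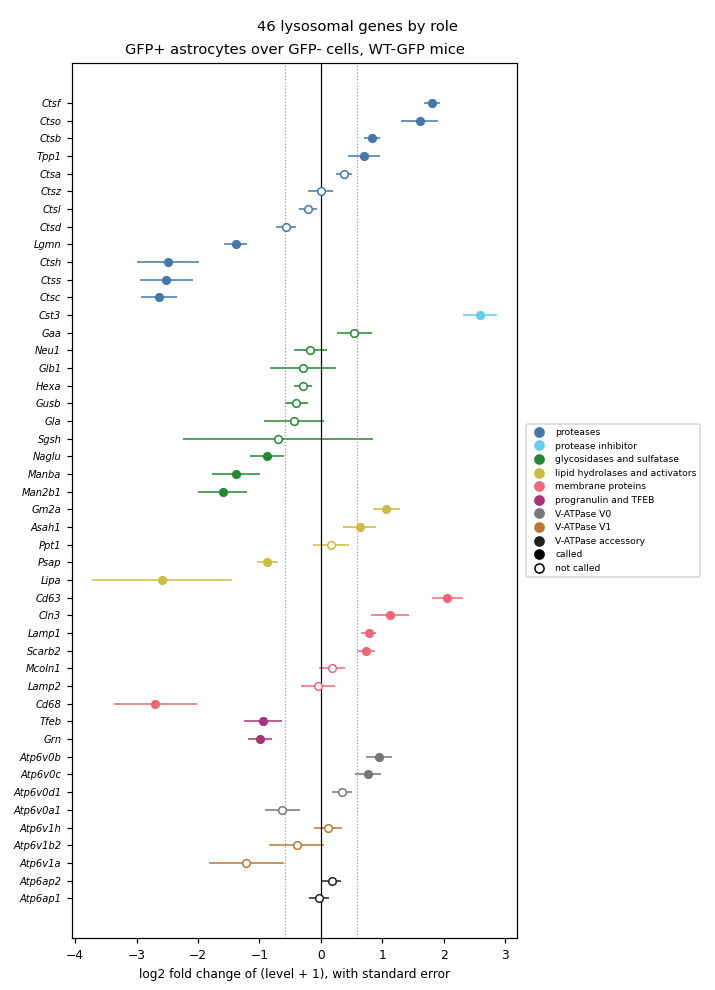
Log2 fold change of (level + 1) of 7 samples of astrocytes over 3 of GFP- cells, all from WT-GFP mice, for 46 lysosomal genes ordered by role, with bars for the standard error of limma, filled points for called genes and dotted lines at the fold threshold of 1.5. *Cst3* at 2.59 and *Cd68* at -2.70 mark the ends of the range.

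Members with the E-box TCACGTG went in both directions in this contrast. Of the 14 members that hold it, 3 were higher and 2 lower in astrocytes, with log2 fold changes from -1.39 to 1.13 and a median of -0.05. Of the 27 members whose windows do not hold it, 8 were higher and 9 lower, from -2.70 to 2.59 with a median of -0.17. The difference between these medians was not tested. Of all genes tested in this contrast, 42.8% were called, 9.25% higher and 33.5% lower, and the counts were not tested against these shares.

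The second comparison asks what the amyloid model does to these genes in astrocytes. Only *Cd68* was called in APP-GFP against WT-GFP astrocytes, 1 of 46 genes, where 2.23% of all genes tested were called (1.66% higher and 0.57% lower). With limma and Benjamini-Hochberg adjustment, 0 members passed, where 0.00435% of all genes did, and 3 had an unadjusted p under 0.05. The median log2 fold change was 0.13 for the 46 genes and 0.09 for all genes tested.

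*Cd68* had 654, 3098, 3937 and 999.95 in APP-GFP replicates 1 to 4, against a median of 443 and a highest level of 1426 in WT-GFP astrocytes. Replicates 2 and 3 were above every WT-GFP sample, and replicates 1 and 4 were within the WT-GFP range. The log2 fold change was 1.90 ± 0.68 (SE, adjusted p = 0.999, limma), and the 2-sided exact permutation p was 0.0485, with a smallest possible value of 0.00606. Without APP-GFP replicate 2 or 3 the log2 fold change was 1.60 or 1.49, and without both it was 0.84, and none of these fits called it. These are the replicates with 34.1% and 44.3% of the GFP- level of microglial markers.

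*Ctss* followed the same samples without being called. It had 1797, 13071, 14617 and 3329 in APP-GFP replicates 1 to 4, so that replicates 2 and 3 were again above the WT-GFP maximum of 5099.8. The log2 fold change was 1.08 ± 0.58 (SE, adjusted p = 0.999, limma, exact permutation p = 0.145), with a 95% interval from -0.17 to 2.32, and it was -0.17 without replicates 2 and 3. *Ctsd* had 29554, 61023, 70789.6 and 40763, with replicates 2 and 3 above the WT-GFP maximum of 42167. Its log2 fold change of 0.55 ± 0.22 (SE, adjusted p = 0.999, limma, exact permutation p = 0.0848) was under the fold threshold, and it was 0.08 without replicates 2 and 3. Exons of *Ctsd* share bases with the model gene Gm49369 on the same strand (34.4% of its exon length), so that its reads may include those of the other gene. edgeR and DESeq2 on whole reads called *Cd68*, *Ctss* and *Ctsd* in this contrast.

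*Psap* behaved otherwise. It had 25608, 24525, 27186 and 28169.6 in APP-GFP replicates 1 to 4, each above the WT-GFP maximum of 22829. It was the only member whose groups did not overlap, where 0.313% of all genes did not overlap. The log2 fold change was 0.49 ± 0.13 (SE, adjusted p = 0.999, limma), a 1.4-fold difference that stayed under the fold threshold of 1.5, and the 2-sided exact permutation p was 0.00606, the smallest possible here. Without APP-GFP replicates 2 and 3 it was 0.52, so the difference was as large without the samples richest in microglial markers. In APP-SOCS3 astrocytes, *Psap* had 23266, 19138, 40293, 32316 and 19775, a spread that overlaps with both other groups.

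No other member was called between these groups. None of the 9 V-ATPase genes was called, with log2 fold changes from -0.32 for *Atp6ap2* to 0.45 for *Atp6v1a* and a median of -0.05, and 8 of their 9 intervals lay within 1 of 0 on the log2 scale, the exception being *Atp6v1a* (-0.69 to 1.59). *Cst3* was at 0.11 ± 0.25, *Ctsb* at 0.10 ± 0.16, *Lamp1* at 0.16 ± 0.12 and *Tfeb* at 0.13 ± 0.31 (SE). Of the 45 members not called, 33 had 95% intervals within 1 of 0, so that a change of 2-fold or more is outside their intervals. For the others it is not, and *Sgsh* (-1.90 to 3.91) and *Lipa* (-1.60 to 2.61) had the widest intervals.

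The third comparison asks what SOCS3 does to these genes in astrocytes of the amyloid model. In APP-SOCS3 against APP-GFP astrocytes, 5 of 46 members were lower and none higher, where 5.7% of all genes tested were called (3.37% lower and 2.33% higher). The lower genes were *Ctss*, *Cd68*, *Ctsh*, *Ctsc* and *Man2b1*, and the groups overlapped for all 46 members, where 2.01% of all genes did not overlap. With limma and Benjamini-Hochberg adjustment 0 members passed, where 0.00438% of all genes did, the smallest adjusted p being 0.576, and 8 had an unadjusted p under 0.05. After the same adjustment, 3 passed with DESeq2 on whole reads (*Cd68*, *Ctsh* and *Ctss*) and 0 with edgeR. The median log2 fold change was -0.05 for the members and 0.08 for all genes tested. This comparison uses the same APP-GFP samples as the previous one, so the 2 are not independent.

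*Ctss* had 1498, 1250.1, 1805, 1049.8 and 823 in APP-SOCS3 replicates 1 to 5. All were below APP-GFP replicates 2, 3 and 4, and replicate 3 was just above APP-GFP replicate 1 at 1797. The log2 fold change was -2.23 ± 0.56 (SE, adjusted p = 0.576, limma, 2-sided exact permutation p = 0.0317 with a smallest possible value of 0.0159). *Cd68* had 492, 473, 734, 333 and 165, and only replicate 3 exceeded APP-GFP replicate 1. Its log2 fold change was -2.09 ± 0.57 (SE, adjusted p = 0.576, limma, exact permutation p = 0.0317).

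*Ctsh* had 357, 3129.8, 3205 and 1423 in APP-GFP and 656, 484, 406, 379 and 246 in APP-SOCS3 astrocytes. APP-GFP replicate 1 lay among the APP-SOCS3 samples and the others above them, and the log2 fold change was -1.86 ± 0.58 (SE, adjusted p = 0.641, limma, exact permutation p = 0.0794). *Ctsc* had 255, 1104, 493 and 534 in APP-GFP and 188, 299.5, 132, 195 and 264 in APP-SOCS3 astrocytes. Here APP-GFP replicate 2 alone stood far above the rest, and the log2 fold change was -1.33 ± 0.41 (SE, adjusted p = 0.641, limma, exact permutation p = 0.0476). *Man2b1* had 1029, 3449.6, 2213 and 1754, against 917, 1829, 1071, 1066 and 1171. These ranges overlapped widely, and the log2 fold change of -0.71 ± 0.32 (SE, adjusted p = 0.795, limma, exact permutation p = 0.143) passed in 2 of the 9 fits that each left out 1 sample, namely those without APP-GFP replicate 1 or APP-SOCS3 replicate 2, at -1.01 and -0.87. In the fits that lost the call it was between -0.76 and -0.43.

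Without APP-GFP replicates 2 and 3, only *Ctss* was called lower in APP-SOCS3 astrocytes, at -0.98, while *Cd68*, *Ctsc*, *Ctsh* and *Man2b1* were at -1.04, -0.83, -0.79 and -0.19 and were not called. Markers of other cells moved in the same comparison: 19 of 20 microglial and 15 of 15 endothelial markers were called lower in APP-SOCS3 astrocytes, as were 6 of 8 markers of perivascular macrophages (median log2 fold change -3.03), 4 of 9 of mural cells, 3 of 6 of oligodendrocyte precursor cells and 4 of 12 of neurons. The median log2 fold change of the 20 microglial markers was -1.99. *Cx3cr1* and *P2ry12*, receptors that define resting microglia, had smaller log2 fold changes of -1.34 ± 0.44 and -0.94 ± 0.33, and *Tmem119*, another defining gene, -1.58 ± 0.59 (SE). None of the 3 was at 0 in any astrocyte sample. The part of these cells in the lower levels of the 5 lysosomal genes was not tested.

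The 5 genes were also measured against their levels in GFP- cells. In APP-GFP replicates 2 and 3, where the microglial marker sum was 34.1% and 44.3% of the GFP- mean, *Ctss* was at 81.9% and 91.6%, and *Cd68* was at 103% and 131%. *Ctsh* was at 46.8% and 48.0%, *Ctsc* at 43.7% and 19.5%, and *Man2b1* at 95.1% and 61.0%. In APP-SOCS3 astrocytes, the marker sum was 3.78% to 7.48%, *Ctss* 5.16% to 11.3%, *Cd68* 5.49% to 24.4% and *Ctsh* 3.68% to 9.81% of the GFP- mean. *Man2b1* kept 25.3% to 50.4% there and 11.2% to 47.1% in WT-GFP astrocytes.

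**Figure D3:**
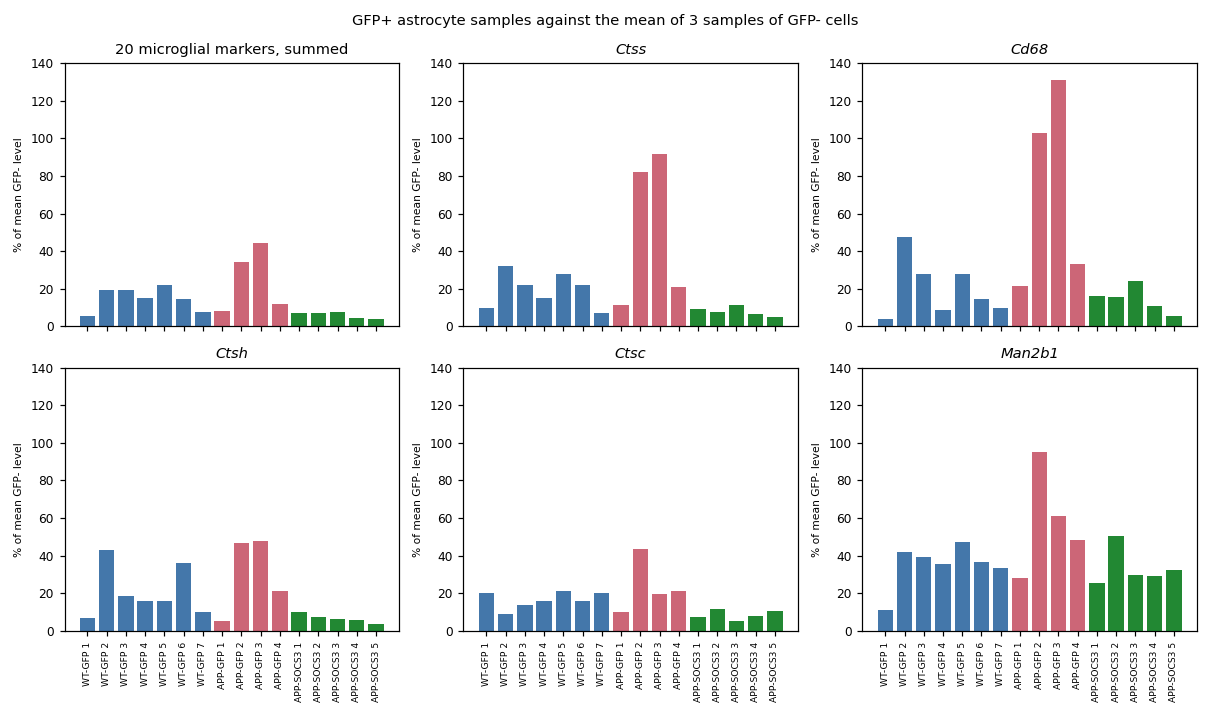
Summed level of 20 microglial markers and levels of *Ctss*, *Cd68*, *Ctsh*, *Ctsc* and *Man2b1* in the 16 samples of GFP+ astrocytes, as percent of the mean of GFP- cells (n = 3), on shared axes from 0. APP-GFP replicates 2 and 3 have the tallest bars for the markers, *Ctss*, *Cd68*, *Ctsh* and *Man2b1*, and only replicate 2 stands out for *Ctsc*.

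Among members not called, *Ctsd* had 34276, 37055, 38539.9, 31751 and 24182 in APP-SOCS3 astrocytes, which overlap with APP-GFP replicate 1. Its log2 fold change against APP-GFP was -0.55 ± 0.24 (SE, adjusted p = 0.793, limma, exact permutation p = 0.143), under the fold threshold, and -0.08 without APP-GFP replicates 2 and 3. *Lgmn* at -0.36 ± 0.15 and *Atp6ap2* at 0.43 ± 0.19 (SE) had exact permutation p of 0.0476 and 0.0317 and were under the same threshold. *Atp6ap2*, also known as the prorenin receptor, had 3574, 1983, 3663 and 3342 in APP-GFP replicates 1 to 4, of which replicate 2 was by far the lowest. Without APP-GFP replicates 2 and 3, *Lgmn* was at -0.18 and *Atp6ap2* at 0.25. The intervals of all 9 V-ATPase genes lay between -0.60 and 0.85 on the log2 scale, with a median difference of -0.01, so that a 2-fold change in either direction is outside each of them. *Cst3* was at -0.23 ± 0.21, *Ctsb* at -0.23 ± 0.17, *Lamp1* at -0.20 ± 0.12, *Psap* at -0.03 ± 0.21 and *Tfeb* at 0.26 ± 0.26 (SE). In all, 37 of the 41 members not called had intervals within 1 of 0.

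**Figure D4:**
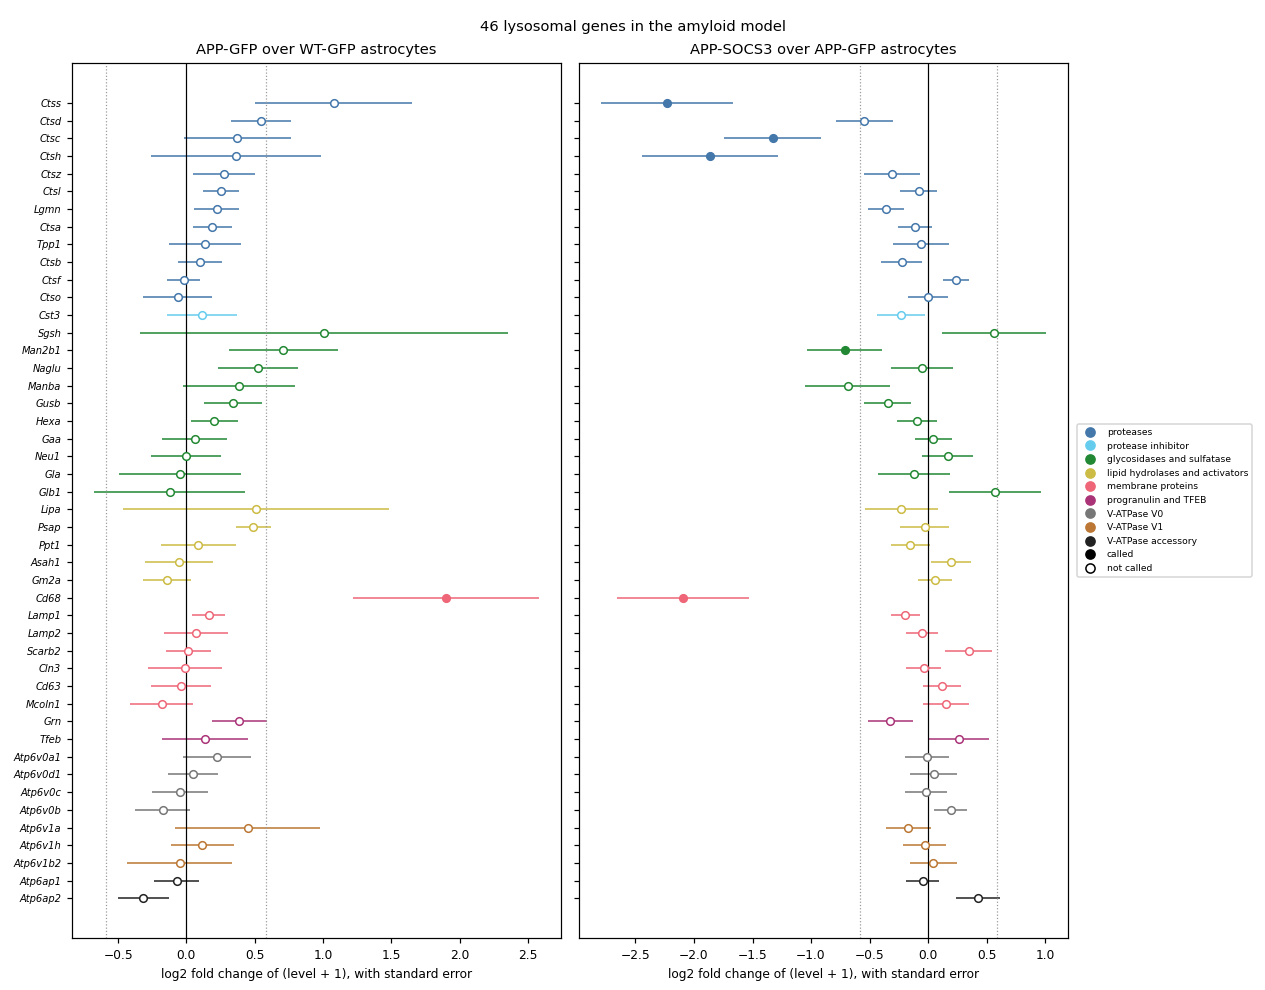
Log2 fold changes of (level + 1) for 46 lysosomal genes ordered by role, APP-GFP over WT-GFP astrocytes on the left and APP-SOCS3 over APP-GFP astrocytes on the right, with standard errors of limma, filled points for called genes and dotted lines at the fold threshold of 1.5. The panels share the 4 APP-GFP samples, have their own horizontal axes, and show *Cd68* at 1.90 and -2.09.

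APP-SOCS3 astrocytes were also compared with WT-GFP astrocytes, from which they differ by both genotype and SOCS3, with samples that the comparisons above also used. *Ctsh*, *Ctss* and *Ctsc* were lower, 3 of 46 members, where 5.21% of all genes tested were called (2.02% lower and 3.19% higher). Their log2 fold changes were -1.5 ± 0.42, -1.15 ± 0.36 and -0.96 ± 0.31 (SE), with exact permutation p of 0.0101, 0.0227 and 0.0101 and a smallest possible value of 0.00253. The groups overlapped for all 46 members, where 0.566% of all genes did not overlap. In WT-GFP astrocytes *Ctss* reached down to 1154, *Ctsh* to 458 and *Ctsc* to 225. With limma and Benjamini-Hochberg adjustment 0 members passed, where 0.0305% of all genes did, the smallest adjusted p being 0.397, and 5 had an unadjusted p under 0.05. After the same adjustment, 2 passed with DESeq2 on whole reads (*Ctsh* and *Ctss*) and 0 with edgeR. *Cd68*, at -0.20 ± 0.57, and *Man2b1*, at -0.00 ± 0.32 (SE), were not called. *Psap* and *Scarb2* were at 0.46 ± 0.18 and 0.36 ± 0.15 (SE, exact permutation p = 0.0581 and 0.0278), under the fold threshold. Beside these, 14 of 20 microglial markers were called lower in APP-SOCS3 than in WT-GFP astrocytes, with 12 of 15 endothelial markers (median log2 fold change -2.50), 5 of 9 of mural cells and 0 of 7 tested of perivascular macrophages, and their part was not tested. With equal upper quartiles, which shifted the median of all genes to 0.52, only *Ctsh* remained lower, and *Naglu*, *Psap* and *Scarb2* were called higher.

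The contrast of astrocytes with GFP- cells and that of APP-SOCS3 with APP-GFP astrocytes share no sample, so their values can be set side by side. The 5 members lower in APP-SOCS3 astrocytes were all among the 12 that were lower in astrocytes than in GFP- cells, 100% of the 5 and 41.7% of the 12. Over all genes tested in both, the shared genes were 83.3% of those lower in APP-SOCS3 and 11.4% of those lower in astrocytes. *Lipa*, *Psap*, *Tfeb*, *Grn*, *Naglu*, *Manba* and *Lgmn* were lower in astrocytes than in GFP- cells without being called lower in APP-SOCS3. Across the 46 genes, Pearson's r of the log2 fold changes was 0.646 and Spearman's rho 0.521, against 0.258 and 0.188 across all 21873 genes. Without APP-GFP replicates 2 and 3, they were 0.714 and 0.662 across the 46, and the values across all genes were not computed for that setting. These are descriptions across genes, which are not independent replicates and share their samples within each contrast.

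**Figure D5:**
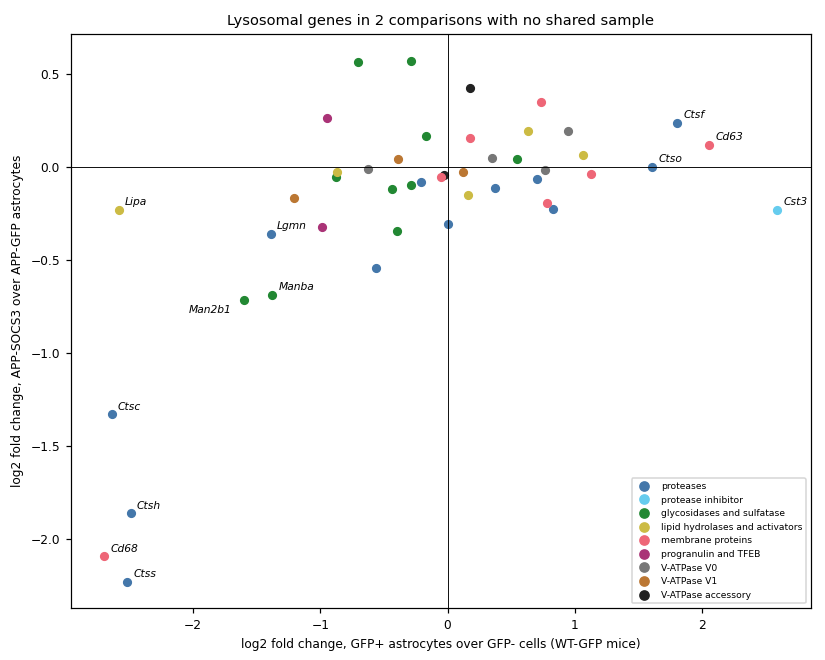
Each point is 1 of 46 lysosomal genes, colored by role, with the log2 fold change of WT-GFP astrocytes over GFP- cells on the horizontal axis and that of APP-SOCS3 over APP-GFP astrocytes on the vertical axis. *Ctss*, *Cd68*, *Ctsh* and *Ctsc* lie at the lower left, while *Lipa*, at -2.58 on the horizontal axis, lies near 0 on the vertical one.

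The 14 members with the E-box TCACGTG in their promoters included none of the genes called in any comparison among astrocyte groups, while the 27 without it included 1, 4 and 2 of those called in APP-GFP against WT-GFP, APP-SOCS3 against APP-GFP and APP-SOCS3 against WT-GFP. With 2.23%, 5.7% and 5.21% of all genes called, a count of 0 among 14 is near the background and is no result about the motif. The 14 had medians of 0.11 in APP-GFP against WT-GFP and -0.05 in APP-SOCS3 against APP-GFP. The medians of the 27 members without it were 0.14 and -0.06. *Ctss* and *Cd68*, whose windows are printed above without capitals, are among these 27. *Tfeb* mRNA itself was not called in either contrast, with 95% intervals from -0.54 to 0.81 and from -0.31 to 0.84, and mRNA levels do not show where the TFEB protein is in the cell.

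The members differed in how much they varied between samples of a group. In WT-GFP astrocytes the coefficient of variation was lowest for *Scarb2* (9.25%), *Lamp1* (9.62%) and *Ctsl* (9.71%) and highest for *Cd68* (76.5%), *Lipa* (72.8%), *Ctsh* (64.3%) and *Atp6v1a* (62.5%). The median over the 46 genes was 25.6% in WT-GFP, 22.6% in APP-GFP, 17.0% in APP-SOCS3 astrocytes and 13.8% in GFP- cells. In APP-GFP astrocytes, *Ctss* (80.1%), *Cd68* (73.5%), *Ctsh* (68.3%) and *Sgsh* (63.8%) varied most and *Psap* least (6.15%), and the latter had 33.8% in APP-SOCS3 astrocytes. *Atp6v1a*, the catalytic subunit of the pump, had 3661, 449.7, 594, 2969, 2322, 1377 and 1975 in WT-GFP replicates 1 to 7. Replicates 2 and 3, with the lowest levels, are also among the samples with the fewest genes detected, and the part of this in the spread was not tested.

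A list of 62 other lysosomal genes was counted in the same way. In astrocytes against GFP- cells, 16 were higher and 13 lower of 61 tested, where 9.25% of all genes were higher and 33.5% lower. In APP-GFP against WT-GFP, 2 of 61 were called, in APP-SOCS3 against APP-GFP 4 of 61, and in APP-SOCS3 against WT-GFP 1 of 60. These counts are near or below the 2.23%, 5.7% and 5.21% of all genes called. Called in all comparisons among astrocyte groups was *Cst7*, which encodes cystatin F, an inhibitor of cathepsin C in immune cells. *Cst7* was listed at 0 in 6 of 7 WT-GFP samples and at 11.2 in the other, and it had 544, 2401, 4526 and 905 in APP-GFP and 238, 388, 694, 229 and 43.9 in APP-SOCS3 astrocytes. GFP- cells of WT-GFP mice had 42.5, 119 and 104, below every APP-GFP sample. It was higher in APP-GFP and in APP-SOCS3 than in WT-GFP astrocytes without overlap in either case, with exact permutation p of 0.00606 and 0.00253 (adjusted p = 0.0073 and adjusted p = 0.0244, limma), and lower in APP-SOCS3 than in APP-GFP by a log2 fold change of -2.71 ± 0.78 (SE, adjusted p = 0.602, limma, exact permutation p = 0.0317). Without APP-GFP replicates 2 and 3, *Cst7* was still called higher in APP-GFP than in WT-GFP, but at -1.60 it was not called between APP-SOCS3 and APP-GFP. GFP- cells of APP mice were not analysed here.

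Of the other genes of that list, *Laptm5*, a lysosomal membrane protein of blood cells, was lower, with a log2 fold change of -1.97 ± 0.63 and *Idua*, which encodes α-L-iduronidase, was higher, with 0.64 ± 0.24, in APP-SOCS3 than in APP-GFP astrocytes (SE). Without APP-GFP replicates 2 and 3 they were at -0.68 and 0.27 and were not called. *Ctse*, an aspartic protease of endosomes, had 50.7, 0, 187 and 75 in APP-GFP and at most 4.54 in WT-GFP astrocytes, and was called higher (adjusted p = 0.999, limma, exact permutation p = 0.0485).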

How the data were processed

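RNAseq had been performed by the authors on 16 samples of GFP+ astrocytes and 3 of GFP- cells sorted from hippocampi, grouped here by their labels. The methods say that both hippocampi of a mouse were handled and sorted apart, and the study counts its groups in mice. The labels do not tie samples to mice, so p-values measure the spread between these samples. RNA was reverse transcribed and amplified from low input, reads of 100 bases were mapped to mm10 with STAR 2.4.0, counted on constitutive regions of annotated genes and normalized with DESeq2. What the authors deposited is a normalized signal, in which the reads of each gene had been divided by the size factor of its sample. Strand use in counting is not given in the sources used here. All values were whole multiples of the value of 1 read (100%, tolerance 0.01 reads), and the whole reads served the count models. A level of 3 reads was taken as the floor of detection, and such limits cover counting error only.

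The 46 genes, the other lists and the tests were chosen with earlier results of these data known. For each comparison, log2(level + 1) was fitted with limma 3.58.1 in R 4.3.3, using its trend option and only the samples compared. Genes entered if their mean reached 10 in one of the groups. P-values were adjusted by Benjamini-Hochberg over all of these genes. Fold changes are on that scale and understate changes of low genes. Exact permutation tests listed every regrouping of the samples and were 2-sided, with the smaller tail doubled. Correlations over all genes tested in both contrasts were computed with scipy 1.17.1. Described gene by gene were members called among astrocyte groups, the 5 with the largest difference in each direction against GFP- cells, the 5 with the highest level per length, and *Tfeb*, *Ctsd*, *Lamp1*, *Cst3* and *Atp6v0a1*, with *Cst7* and called genes of the other list, of which 1 is not reported here. Alternatives were pseudocounts of 0.1 and 10, other minimum levels, a joint fit of all 19 samples, scaling by totals or by upper quartiles, edgeR 4.0.16 and DESeq2 1.42.0 on whole reads, a fold of 2, the replicate number as a block and leaving out samples. Lengths and positions come from GENCODE M21 exons and RefSeq promoter windows, both on the mm10 build. Of the entries, 3 members share theirs with another symbol (*Glb1*, *Cln3* and *Atp6v0a1*), and exons of *Ctsl*, *Sgsh* and *Ctsb* overlap other genes over 26.8%, 21.6% and 12.8% of their length. The tests were checked on simulated reads with large changes and the same dispersion for all genes. That check does not cover genes that varied as widely as *Ctss*, *Cd68* and *Ctsh* in APP-GFP astrocytes.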

Additional observations from a re-analysis of the deposited data

Results flagged for a closer look

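Of 138 groups of 4 to 7 samples tested over the 46 genes, 9 held a sample far from all others by Dixon's criterion on the log2 scale (6.52%), where chance gives about 1 in 20. In WT-GFP replicate 3, *Ctsf* was the highest at 14549.8 (next highest 11980.1), *Sgsh* was the lowest at 0 (next 125) and *Neu1* the lowest at 486 (next 834). In APP-GFP replicate 2, *Glb1* was the lowest at 148 (next 477) and *Atp6ap2* the lowest at 1983 (next 3342). *Atp6v0b* was the highest in APP-GFP replicate 3 at 9706 (next 6946), *Man2b1* the lowest in WT-GFP replicate 1 at 406 (next 1219), *Ppt1* the lowest in WT-GFP replicate 6 at 1424 (next 2828) and *Grn* the lowest in APP-SOCS3 replicate 5 at 3847 (next 5409).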

How the results depend on the processing

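For astrocytes against GFP- cells, 25 members were called, between 21 and 26 when each sample was left out in turn, and 14 with a fold of at least 2. For APP-GFP against WT-GFP, 1 member was called, 0 to 4 when samples were left out in turn (0 without APP-GFP replicate 3, 4 without APP-GFP replicate 1, 2 without APP-GFP replicate 4 or WT-GFP replicate 3), 3 with DESeq2, 3 with edgeR, 2 with all 19 samples in one fit and 4 with equal upper quartiles. For APP-SOCS3 against APP-GFP, 5 were called (4 to 7 with samples left out), and for APP-SOCS3 against WT-GFP 3 (3 to 3). After Benjamini-Hochberg adjustment, 0 members passed with limma in each of these 3 comparisons among astrocyte groups, and with DESeq2 0, 3 and 2 did. Some alternatives were added after the data were seen. Without the samples with the fewest genes detected, the counts were 26, 1, 4 and 3, and without the 2 APP-GFP samples richest in microglial markers no member (0) was called between APP-GFP and WT-GFP, and 1 between APP-SOCS3 and APP-GFP. Among further values for single members under these settings, 571 kept their side of the threshold or, for levels per length, stayed within their spread. A call was lost in 36 and gained in 19, and 2 levels moved beyond their spread. None changed sign where either fit called the member, and sign changes without a call were counted as kept. The causes were not tested. Deviations of samples with equal replicate numbers had correlations from -0.078 to 0.15. In APP-GFP against WT-GFP and in APP-SOCS3 against APP-GFP, 3 of 4 samples correlated best with their own number. It was 1 of 3 in astrocytes against GFP- cells and 1 of 5 in APP-SOCS3 against WT-GFP. The labels name no pairs, so the numbers were not treated as pairs, and whether they share an effect was not tested. With a replicate block, 22, 3, 6 and 2 members were called. With 3 to 7 samples per group, many intervals include a 2-fold change.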
